A study of Bos taurus with 6 samples.

Results

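The genes of cholesterol synthesis and of its feedback control were followed in bovine blastocysts that developed from oocytes matured with or without melatonin (MT). The set holds 29 genes of the 36075 in the expression table, taken by gene symbol. They are 7 enzymes of the mevalonate arm, 3 enzymes that make squalene and lanosterol, 9 enzymes between lanosterol and cholesterol, 7 genes of sterol-sensing transcriptional control, and 3 genes of cholesterol transport and storage. All 29 symbols matched 1 row each. The control group had 3 libraries of blastocysts from oocytes matured without MT, and the MT-treated group had 3 libraries of blastocysts whose oocytes had 1e-07 mol/L MT in the maturation medium for 22 h. Each library was a pool of 3 in vitro produced embryos, and the runs behind the 3 libraries of a group were independent. The oocytes came from slaughterhouse ovaries and were fertilized in vitro, and the methods name MT for the maturation medium only. Pooled whole blastocysts mix trophectoderm, inner cell mass and hypoblast. In such samples, fewer cells of a type and less RNA per cell cannot be told apart.

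Cholesterol is built from acetyl units. The mevalonate arm joins them into isoprenoid diphosphates, which also feed the prenylation of proteins, dolichol and ubiquinone. The next enzymes condense them into squalene and close the rings to lanosterol, and a last series of membrane enzymes in the endoplasmic reticulum trims lanosterol to cholesterol. Transcription of the pathway is set by SREBP proteins, which are escorted by SCAP from the endoplasmic reticulum to the Golgi when sterols are low, are cut there by 2 proteases, and are held back by INSIG proteins when sterols are high. Early embryos need cholesterol for membranes, and its precursors for the modification of signaling proteins.

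Values were TPM, a transcript abundance that scales reads by gene length and library total, so levels can be compared between genes within a library. TPM hold no read counts, so the depth behind a value is unknown. Differences are MT-treated minus control in log2(TPM + 1), a scale that understates changes of low genes. They were tested with limma over the 11953 genes that reached 1 TPM in 3 or more libraries, with Benjamini-Hochberg adjustment over all of them. A gene was called at an adjusted p-value under 0.05.

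The libraries of both groups differed across the whole transcriptome. Between 8854 and 8953 genes were above 0 in a control library and between 14372 and 14408 in an MT-treated library, and 33.8% of the tested genes were at 0 in all 3 controls. Genes that most cells express were among them, such as LBR, so a 0 is given as listed and not as absence. The listed TPM summed to 936783 to 937698 in the controls and to 912686 to 913707 in the MT-treated libraries. The median of the 5988 genes present at 1 TPM or more in all 6 libraries differed by -0.48 on the log2 scale (MT-treated minus control), so each direction was also read after each library was centred on that median. Markers of a blastocyst were only partly present in the controls. Of 9 trophectoderm markers in the table, all were above 0 in every MT-treated library and 7 in every control library, with CDX2 and ELF5 at 0 in the controls. TFAP2A went the other way, with 31.5 to 38.9 TPM in the controls and 0.46 to 0.55 TPM in the MT-treated libraries. KRT8, which made up most of the sum, had a mean of 8695 TPM in the controls and 6905 TPM in the MT-treated group. Its difference of -0.33 (limma adjusted p = 3.47e-06) reversed to 0.15 after median centring (limma adjusted p = 0.000109). The summed level was 11375 to 11716 TPM in the controls against 10519 to 10875 TPM in the MT-treated libraries. Of 5 inner cell mass markers, 4 were above 0 in every MT-treated library and 2 in every control library. NANOG was at 0 in the controls, SOX2 reached at most 0.02 TPM there, and the sums were 208 to 209 TPM against 289 to 294 TPM. Most of both sums was POU5F1, whose groups overlapped, at 188.3 to 191.3 TPM in the controls and 190.6 to 194.1 TPM with MT. KLF4 had 17.3 to 19.2 TPM in the controls and 83.6 to 84.0 TPM with MT. Of 5 hypoblast markers, 3 were above 0 in every MT-treated library and 1 in every control library, with sums of 0.20 to 0.44 TPM against 53.5 to 57.5 TPM, and GATA4 and FOXA2 were at 0 throughout. Of 9 markers of cumulus and granulosa cells in the table, 3 were above 0 in every control and 2 in every MT-treated library. They summed to 96.1 to 97.8 TPM and 96.9 to 99.5 TPM, with HAS2, PTX3, TNFAIP6 and FOXL2 at 0 in all 6 libraries. Most of both sums was CYP11A1, with 77.55 to 79.64 TPM in the controls and 80.87 to 84.05 TPM in the MT-treated libraries. FSHR had 17.21 to 19.21 TPM in the controls and 15.03 to 17.08 TPM in the MT-treated libraries. Of 10 oocyte markers, 8 were at 0 throughout. OOEP had 45.5 to 49.3 TPM in the controls against 20.5 to 22.5 TPM in the MT-treated libraries, and BMP15 was at 0 in the controls and had 0.52 to 0.89 TPM with MT, so the sums of 45.5 to 49.3 and 21.0 to 23.4 TPM are nearly those of OOEP. The part of these differences, and of the zeros in the controls, in the results for the sterol genes was not tested. No label gives a sequencing batch, and a batch that coincided with the groups cannot be told apart from MT.

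Of the 29 sterol genes, 28 reached the level required for testing and all 28 were called, which is close to the 95.7% called among all tested genes and is no result about these genes. The groups did not overlap for any of the 28, against 96.1% of all tested genes. By direction, 17 were lower and 11 higher in the MT-treated group, where 34.1% of all tested genes were lower and 61.6% higher. Of the 28, SCAP, TM7SF2, LBR and MBTPS2 were at or near 0 in the controls and reached the level for testing only through the MT-treated libraries, so their calls were fixed by the filter and their values are given without a test. SQLE, at about 1 TPM in the controls, also passed only with the MT-treated libraries. Among genes above 0 in all 6 libraries, 17 sterol genes were lower and 7 higher of 24, where 52.4% of 6925 genes were lower and 40.6% higher, with a median difference of -0.56 over the 24 and -0.19 over the 6925. At a difference of at least 2-fold, 11 were lower and 6 higher, against 19.6% and 51.0% of all tested genes. The median difference was -0.41 over the 28 genes and 1.12 over all tested genes. After median centring, 12 were lower, 12 higher and 4 not called, where 25.4% of all tested genes were lower and 70.4% higher. Quantile normalization, which forces 1 common distribution on the libraries, left 18 lower and 9 higher. Of the 28, 3 were listed at 0 in every control.

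**Figure D1:**
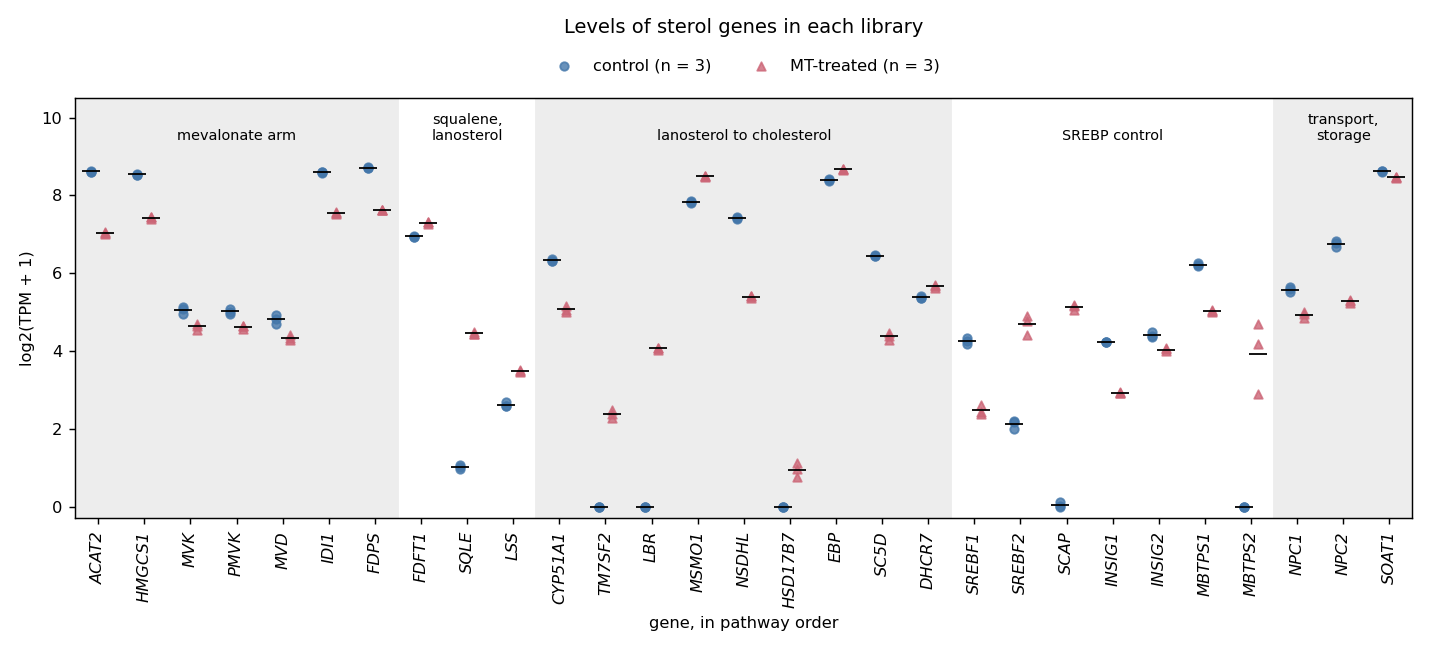
Level of each of the 29 sterol genes in log2(TPM + 1) on the vertical axis, with genes in pathway order on the horizontal axis. Circles are the 3 control libraries, triangles the 3 MT-treated libraries, black bars the group means, and shaded blocks the 5 groups of genes. The 7 genes of the mevalonate arm all lie lower in the MT-treated libraries in the deposited TPM, of which MVK, PMVK and MVD were not called after median centring, while TM7SF2, LBR, HSD17B7 and MBTPS2 lie at 0 in every control.

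The mevalonate arm was lower as a block in the deposited TPM. All 7 enzymes, each above 0 in every library, fell in the MT-treated group, where 52.4% of genes above 0 in all libraries were lower, and after median centring ACAT2, HMGCS1, IDI1 and FDPS still fell whereas MVK, PMVK and MVD were no longer called. The 4 abundant enzymes lost between 2.06-fold and 3.00-fold, and the 3 scarce ones between 1.33-fold and 1.41-fold.

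ACAT2, the cytosolic thiolase that joins 2 acetyl-CoA, had 389, 387 and 398 TPM in the control libraries against 129, 129 and 134 TPM in the MT-treated libraries. Its difference of -1.58 (standard error 0.02, limma adjusted p = 4.22e-09) was the largest of the arm. HMGCS1, which adds the third acetyl unit, had 370.5, 375 and 368 TPM in the controls against 172, 174 and 168 TPM, a difference of -1.11 (limma adjusted p = 1.05e-08). IDI1, which isomerizes isopentenyl diphosphate, had 379, 389 and 385 TPM in the controls against 189.6, 187 and 184 TPM, a difference of -1.04 (limma adjusted p = 1.37e-08). For these 3 enzymes every MT-treated library lay far below every control, and replicates of a group lay within a few percent of each other. FDPS, which makes farnesyl diphosphate at the branch point to sterols and prenyl groups, had 422, 413 and 418 TPM in the controls against 196, 196 and 198 TPM, a difference of -1.08 (standard error 0.01, limma adjusted p = 3.81e-09). It was the most abundant sterol gene of the control blastocysts.

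The kinases and the decarboxylase in the middle of the arm were more than 10-fold scarcer in the controls and moved less. MVK, mevalonate kinase, had 32.9, 30.1 and 34.1 TPM in the controls against 22.4, 24.2 and 24.95 TPM in the MT-treated libraries. PMVK, phosphomevalonate kinase, had 31.2, 30.2 and 33.1 TPM against 22.9, 24.1 and 23.96 TPM. MVD, which yields isopentenyl diphosphate, had 27.45, 24.7 and 29.5 TPM against 20.4, 18.3 and 19.1 TPM. Their groups did not overlap, but the differences of -0.42, -0.40 and -0.47 (limma adjusted p = 0.000567, 0.000129 and 0.000875) were of the size of the shift between the libraries, and became 0.05, 0.08 and 0.0064 after median centring (limma adjusted p = 0.385, 0.0986 and 0.933). Among the 5988 genes present in all libraries, MVD ranked at the 37.6th percentile in both groups, while ACAT2 moved from the 93.4th to the 83.7th.

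The 3 enzymes that follow, from farnesyl diphosphate to lanosterol, had higher TPM in the MT-treated libraries, although LSS had the opposite direction after quantile normalization. Of the 3, only FDFT1 both reached the level for testing in each group and kept its direction under all 3 scalings. FDFT1, squalene synthase and the first enzyme committed to sterols, had 124, 121 and 122 TPM in the controls against 157, 153 and 157 TPM in the MT-treated libraries, a difference of 0.35 (standard error 0.02, limma adjusted p = 3.05e-06). SQLE, the squalene epoxidase that carries out a rate-limiting oxygenation, had 0.94, 1.10 and 1.04 TPM in the controls against 20.8, 21.4 and 20.85 TPM, a 20.5-fold difference in TPM. Only 2 controls of SQLE reached the 1 TPM limit, so it was tested through the MT-treated libraries and is given without a test, and all MT-treated libraries lay within 1 TPM of each other. LSS, lanosterol synthase, had 5.01, 5.40 and 5.01 TPM in the controls against 10.3, 10.4 and 10.0 TPM. Its 1.99-fold difference in TPM corresponds to 0.87 on the log2(TPM + 1) scale (limma adjusted p = 1.35e-06), to 1.35 after median centring and to -1.51 after quantile normalization.

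The stretch from lanosterol to cholesterol held genes of both directions. Of 6 enzymes above 0 in all libraries, 3 rose and 3 fell, in the deposited TPM and after median centring, near the 40.6% higher and 52.4% lower of all genes above 0 in all libraries. The falls were in CYP51A1, NSDHL and SC5D and exceeded 2-fold in each. The rises were in MSMO1, EBP and DHCR7, which were present in every library. TM7SF2, LBR and HSD17B7 were at 0 in the controls.

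CYP51A1, the P450 that removes the 14-alpha methyl group of lanosterol, had 81.4, 79.1 and 78.6 TPM in the controls against 31.4, 34.9 and 32.2 TPM in the MT-treated libraries (difference -1.26, limma adjusted p = 3.23e-07). The next step, reduction of the C14 double bond, can be made by either of a pair of enzymes. TM7SF2 was at 0 in the 3 controls and reached 4.61, 3.83 and 4.25 TPM in the MT-treated libraries, and its difference was 0.08 after quantile normalization. LBR, which is also an inner nuclear membrane protein that binds lamin B, was at 0 in the 3 controls and reached 16.0, 15.3 and 16.0 TPM in the MT-treated libraries. No transcript of either C14 reductase was thus listed for the control group, and in the MT-treated libraries LBR exceeded TM7SF2 by 3.46-fold to 4.003-fold.

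Removal of the 2 methyl groups at C4 takes MSMO1, NSDHL and HSD17B7 acting together, and these partners did not move together. MSMO1, the C4 methyl oxidase, had 229, 228 and 223 TPM in the controls against 363, 362 and 355 TPM in the MT-treated libraries (difference 0.66, limma adjusted p = 9.92e-08). NSDHL, the decarboxylating dehydrogenase, had 170.0, 168 and 172 TPM in the controls against 41.5, 41.4 and 40.1 TPM in the MT-treated libraries (difference -2.02, limma adjusted p = 1.89e-09). HSD17B7, the ketoreductase, was at 0 in the controls and reached 0.70, 1.16 and 0.97 TPM in the MT-treated libraries, and it did not reach the level for testing. HSD17B7 was the scarcest of the 19 enzymes in the MT-treated group.

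Of the last 3 enzymes, EBP, the sterol isomerase, had 344, 334 and 331 TPM in the controls against 409, 405 and 406 TPM in the MT-treated libraries (difference 0.27, limma adjusted p = 9.02e-06). DHCR7, which reduces 7-dehydrocholesterol, had 40.2, 42.0 and 39.9 TPM in the controls against 48.6, 51.2 and 49.9 TPM in the MT-treated libraries (difference 0.29, limma adjusted p = 0.000165). SC5D, the desaturase that acts between them, had 86.9, 86.3 and 85.8 TPM in the controls against 21.0, 19.96 and 18.5 TPM in the MT-treated libraries (difference -2.07, limma adjusted p = 3.57e-08). With NSDHL it showed the deepest fall of the 28 tested genes in the deposited TPM, of 4.14-fold and 4.36-fold. EBP and DHCR7 rose by less than 1.25-fold, and both gained under median centring, to 0.75 and 0.77.

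**Figure D2:**
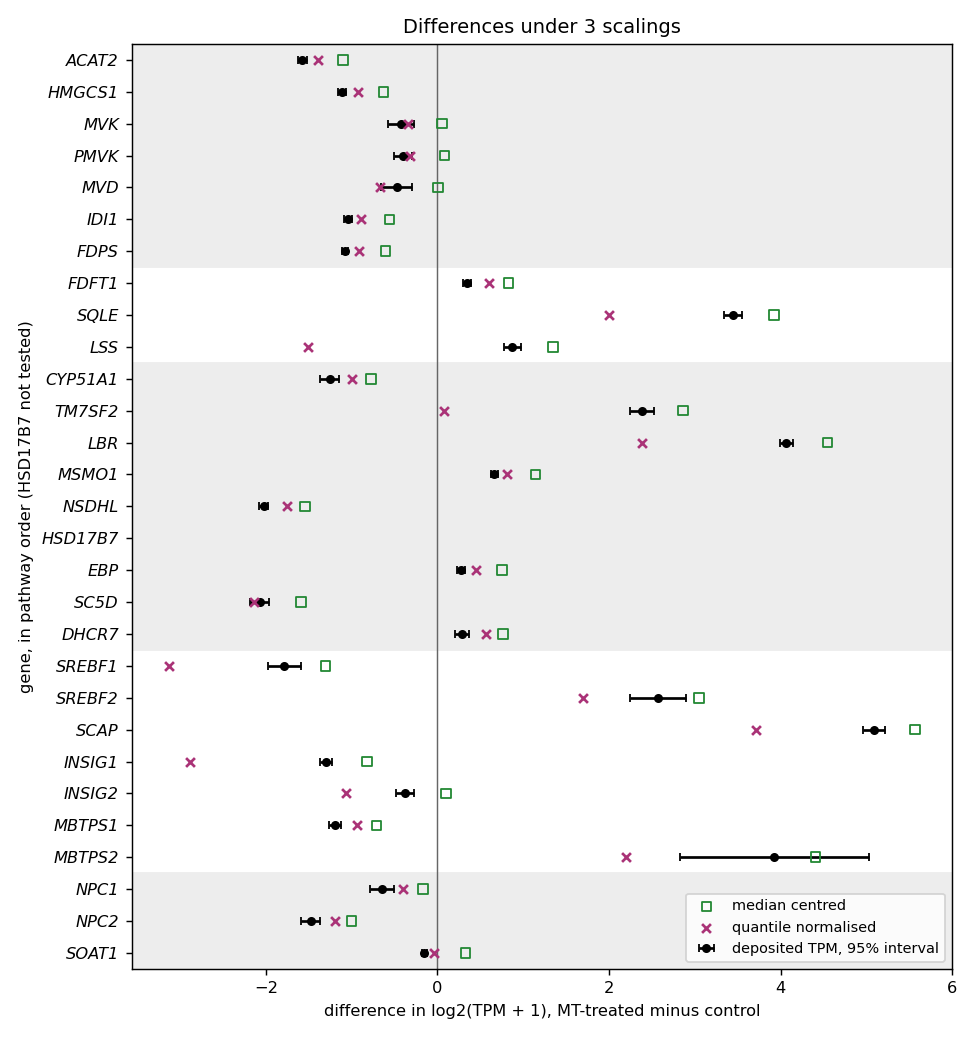
Difference between MT-treated and control blastocysts in log2(TPM + 1) on the horizontal axis for each sterol gene, in pathway order on the vertical axis. Black points with bars are limma estimates from the deposited TPM with 95% confidence intervals, green squares the estimates after median centring, and purple crosses those after quantile normalization. The squares of MVK, PMVK, MVD, INSIG2 and SOAT1 lie on the other side of 0 from their points, as does the cross of LSS.

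Summed over the 19 enzymes, the pathway held 2723 ± 9.64 TPM in the control group and 1870.2 ± 7.71 TPM in the MT-treated group (SD, n = 3 each). The mevalonate arm held 1655 ± 8.27 TPM of this in the control and 752 ± 0.825 TPM in the MT-treated group (SD, n = 3 each). The enzymes of squalene and lanosterol held 128 ± 0.982 and 187 ± 1.75 TPM (SD, n = 3 each), and FDFT1 made up most of the sum in both groups. The 9 late enzymes together held 939 ± 11.3 TPM in the control and 931 ± 7.25 TPM in the MT-treated group (SD, n = 3 each), a difference smaller than the SD of the control libraries, although every single gene of this stage had groups that did not overlap. That closeness holds for the deposited TPM, since the abundant MSMO1 and EBP differed by 1.14 and 0.75 after median centring. As a share of the 19 enzymes, the mevalonate arm made up 60.4% to 61.2% in the controls and 40.1% to 40.4% in the MT-treated libraries, and the late enzymes 34.1% to 34.8% and 49.5% to 49.9%. These shares do not change when a library is multiplied by a constant. They are sums over genes whose single values are given above, and carry no test.

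**Figure D3:**
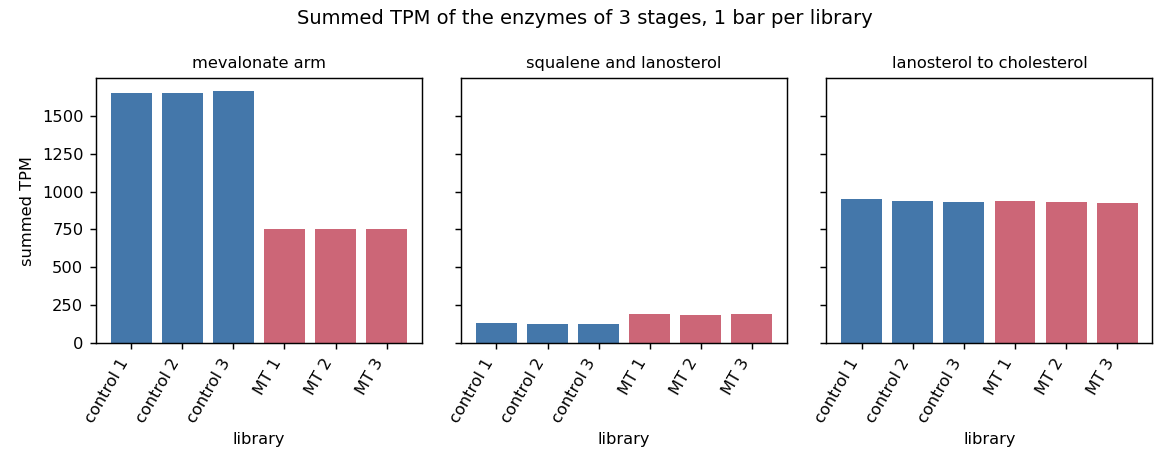
Summed TPM of the enzymes of 3 stages of cholesterol synthesis on the vertical axis, with 1 bar for each library, blue for control and red for MT-treated. The bars of the mevalonate arm stand at 1649 to 1665 TPM in the controls and at 751 to 753 TPM in the MT-treated libraries, while those from lanosterol to cholesterol overlap between the groups in the deposited TPM.

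The genes of sterol-sensing control also held both directions. Of 5 genes above 0 in all libraries, SREBF2 rose and SREBF1, INSIG1, INSIG2 and MBTPS1 fell, with INSIG2 not called after median centring, where 40.6% of such genes were higher and 52.4% lower in the deposited TPM. The other 4 kept their direction under centring and quantile normalization. SCAP and MBTPS2 were at or near 0 in the controls and present in every MT-treated library. SREBF2 encodes the SREBP protein that mainly drives cholesterol genes and SREBF1 the one that mainly drives fatty acid genes.

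SREBF2 had 3.00, 3.50 and 3.63 TPM in the controls against 26.3, 28.7 and 20.5 TPM in the MT-treated libraries, a 7.44-fold difference in TPM (log2(TPM + 1) difference 2.57, standard error 0.13, limma adjusted p = 2.46e-06). SREBF1 had 18.1, 17.2 and 19.1 TPM in the controls against 4.36, 4.20 and 5.15 TPM in the MT-treated libraries, a 3.97-fold fall (difference -1.78, limma adjusted p = 9.54e-07). The more abundant of the pair was therefore SREBF1 in every control and SREBF2 in every MT-treated library. SCAP had 0, 0.08 and 0.02 TPM in the controls against 32.4, 35.5 and 34.6 TPM in the MT-treated libraries.

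SREBP is released by the site-1 and site-2 proteases. MBTPS1, the site-1 protease, had 73.6, 71.6 and 75.3 TPM in the controls against 32.1, 31.5 and 31.3 TPM in the MT-treated libraries (difference -1.19, limma adjusted p = 4e-08). MBTPS2, the site-2 protease, was at 0 in the controls and reached 6.49, 17.0 and 25.0 TPM in the MT-treated libraries. MBTPS2 had the widest spread of the set, an SD of 0.92 on the log2 scale among the MT-treated libraries, where the median SD of the 24 sterol genes above 0 in all libraries was 0.03. SREBF2 was next, at 0.24, and stayed called whichever library was left out.

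INSIG1 and INSIG2 encode the retention proteins, of which INSIG1 is itself a classical SREBP target. INSIG1 had 17.7, 17.7 and 17.9 TPM in the controls against 6.57, 6.72 and 6.58 TPM in the MT-treated libraries (difference -1.30, limma adjusted p = 3.13e-08). INSIG2 had 20.01, 19.7 and 21.4 TPM in the controls against 15.9, 14.98 and 15.5 TPM in the MT-treated libraries (difference -0.38, limma adjusted p = 0.000163). The INSIG2 difference was 0.10 after median centring (limma adjusted p = 0.0503). Neither gene had overlapping groups, and INSIG1 fell under each of the 3 scalings.

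The 3 genes of transport and storage were lower in the deposited TPM, where 52.4% of genes above 0 in all libraries were lower, and SOAT1 reversed after median centring. NPC2, the soluble lysosomal protein that hands cholesterol to NPC1, had 101, 109 and 112 TPM in the controls against 36.8, 37.9 and 38.9 TPM in the MT-treated libraries (difference -1.48, limma adjusted p = 1.53e-07). NPC1, the membrane protein of lysosomal export, had 48.8, 44.6 and 47.1 TPM in the controls against 30.1, 27.6 and 31.1 TPM in the MT-treated libraries (difference -0.64, limma adjusted p = 3.82e-05), and remained lower after median centring (difference -0.17, limma adjusted p = 0.0229). SOAT1, which esterifies cholesterol for storage, had 388, 395 and 393 TPM in the controls against 354, 353 and 349.5 TPM in the MT-treated libraries. Its difference of -0.15 was called (limma adjusted p = 3.61e-05) but reversed to 0.33 after median centring (limma adjusted p = 1.23e-06), and it ranked at the 93.5th and the 93.2nd percentile of the 5988 genes in the control and MT-treated groups. No direction is therefore given for SOAT1.

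The order of levels changed between the groups. In the controls FDPS stood highest at 418 ± 4.80 TPM (SD, n = 3), followed by SOAT1, ACAT2 and IDI1, whose neighbours in this order overlapped, and by HMGCS1 and EBP. In the MT-treated group EBP stood highest at 407 ± 2.19 TPM, followed by MSMO1 at 359.8 ± 4.64 TPM and SOAT1 at 352 ± 2.33 TPM (SD, n = 3 each), with no overlap between neighbours. FDPS came next there at 197 ± 1.07 TPM (SD, n = 3), and ACAT2 dropped from the third to the eighth place. Further down in that group, neighbours overlapped along 4 runs, which were SCAP, CYP51A1 and MBTPS1, then NPC1, SREBF2, MVK and PMVK, then SQLE, SC5D, MVD, MBTPS2, LBR and INSIG2, and last SREBF1 and TM7SF2. In the controls MVK overlapped with PMVK, and SREBF1 with INSIG1. At the low end of the controls stood LSS, SREBF2 and SQLE, which did not overlap with each other, and then SCAP and the 4 genes at 0.

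Ratios of TPM within a library do not change when a library is multiplied by a constant, and were read for 9 pairs of genes that act in neighbouring steps or share a role and were above 0 in all libraries. FDPS exceeded FDFT1 by 3.40-fold to 3.43-fold in the controls and by 1.25-fold to 1.28-fold in the MT-treated libraries. FDFT1 exceeded SQLE by 110.4-fold to 131-fold in the controls and by 7.15-fold to 7.56-fold in the MT-treated libraries. At the C4 demethylation step, MSMO1 stood to NSDHL at 1.29 to 1.36 in the controls and at 8.74 to 8.83 in the MT-treated libraries. In these 3 pairs the 2 groups were far apart compared with their spread, which follows from the single values given above and carries no test.

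Among the late enzymes, EBP exceeded SC5D by 3.85-fold to 3.96-fold in the controls and by 19.5-fold to 21.9-fold in the MT-treated libraries. DHCR7 was below SC5D in the controls, at a ratio of 0.463 to 0.487, and above it in the MT-treated libraries, at 2.32 to 2.69. MSMO1 stood to CYP51A1 at 2.82 to 2.88 and at 10.4 to 11.6. Of the control genes, the ratio of SREBF2 to SREBF1 was 0.166 to 0.204 in the controls and 3.97 to 6.83 in the MT-treated libraries. INSIG2 to INSIG1 was 1.11 to 1.19 against 2.23 to 2.42. The ratio of NPC2 to NPC1 went the other way, from 2.07 to 2.44 in the controls to 1.22 to 1.37 in the MT-treated libraries. The groups overlapped for none of the 9 pairs, as they did not for 96.1% of single tested genes, so this count is no result about these pairs. An exact two-sided permutation test of 3 libraries against 3 cannot give a p-value under 0.1.

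**Figure D4:**
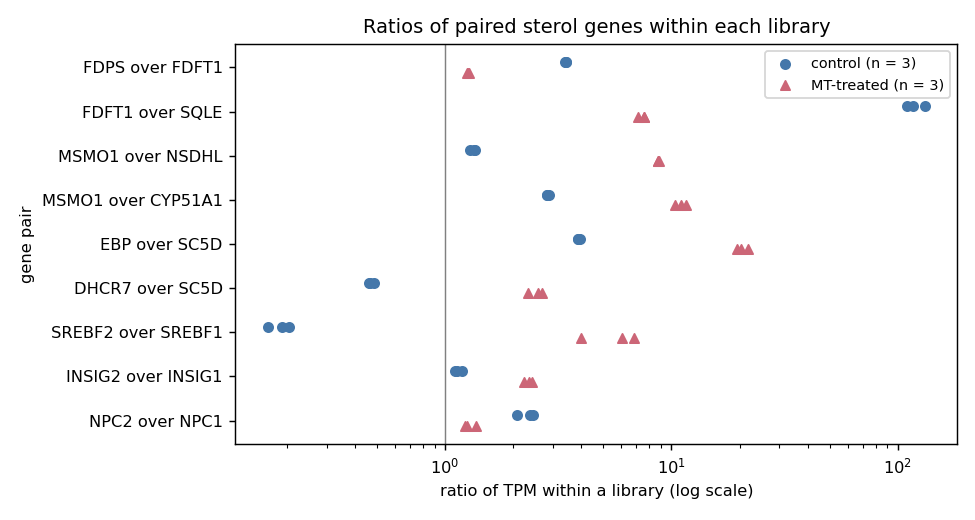
Ratio of the TPM of the first gene to that of the second within each library, on a logarithmic horizontal axis, for 9 pairs of sterol genes on the vertical axis. Circles are the 3 control libraries and triangles the 3 MT-treated libraries, and the grey line marks equal TPM. SREBF2 over SREBF1 and DHCR7 over SC5D lie on opposite sides of the line in the 2 groups.

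Related genes that share substrates, cofactors or sterol sensing with the pathway were read from a list of 59, of which 46 were tested. Of these, 27 were higher and 17 lower, against 61.6% and 34.1% of all tested genes, and their median difference was 0.52. Among those above 0 in all libraries, 14 were higher and 16 lower of 32, against 40.6% and 52.4% of such genes. Median centring gave 31 higher and 14 lower, and quantile normalization gave 23 and 22. In every MT-treated library 46 of the 59 were above 0, and in every control library 33.

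The list of electron donors of the sterol enzymes also holds PGRMC1 and PGRMC2, which are partners of P450 enzymes and not donors. Of its 6 genes, all above 0 in all libraries, 5 were lower and 1 higher, against 52.4% and 40.6% of such genes. After median centring 4 were lower. CYB5A, the cytochrome b5 that passes electrons to SC5D and MSMO1, fell from 25.0 ± 1.71 to 1.85 ± 0.200 TPM (SD, n = 3 each; limma adjusted p = 4.05e-08). POR, the reductase that serves CYP51A1 and SQLE, fell from 47.7 ± 2.11 to 15.3 ± 1.32 TPM (SD, n = 3 each; limma adjusted p = 1.04e-06). PGRMC1, a heme-binding partner of P450 enzymes, rose from 25.2 ± 1.37 to 80.9 ± 2.42 TPM (SD, n = 3 each; limma adjusted p = 1.1e-07). The 3 genes kept these directions under median centring and quantile normalization.

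In the other branches that draw on isoprenoid diphosphates, 8 of 14 genes were higher and 6 lower, against 61.6% and 34.1% of all tested genes. Quantile normalization turned this split to 4 and 10. Of the 10 above 0 in all libraries, 5 were higher and 5 lower, against 40.6% and 52.4% of such genes. PDSS2, a subunit of the enzyme that makes the ubiquinone side chain, had 13.9 ± 0.543 TPM in the controls and 0.330 ± 0.0346 TPM in the MT-treated group (SD, n = 3 each), and reached the level for testing only through the controls. RABGGTA, a subunit of the transferase that prenylates RAB proteins, had 31.1, 31.3 and 32.6 TPM in the controls against 0, 0.07 and 0 TPM in the MT-treated libraries. PGGT1B, a subunit of a geranylgeranyl transferase, and SRD5A3, which makes dolichol, were at 0 in the controls, and reached 13.2, 15.2 and 12.7 TPM with MT for the former, 16.6, 16.6 and 14.97 TPM for the latter.

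Among genes for the turnover of sterol-sensing membrane proteins, 7 of 10 tested were higher and 2 lower, near the 61.6% and 34.1% of all tested genes, and 3 of the 10 were at 0 in every control. Median centring gave 9 higher and 1 lower, and quantile normalization 8 and 2. ERLIN2, a component of the complex that binds INSIG, and TRIM13, a ubiquitin ligase of the endoplasmic reticulum, were at 0 in the controls and reached 19.2, 19.4 and 20.3 TPM with MT for the former, 25.6, 25.5 and 25.6 TPM for the latter. TMEM97, the sigma-2 receptor and a binding partner of NPC1, fell from 282 ± 1.05 to 87.2 ± 1.68 TPM (SD, n = 3 each; limma adjusted p = 2.1e-09). UBE2G2, a ubiquitin-conjugating enzyme, was called lower at 42.1 ± 0.180 against 39.8 ± 1.297 TPM (SD, n = 3 each; limma adjusted p = 0.0408). That call was lost when any 1 control library was left out (limma adjusted p = 0.0805 to 0.101) and its direction reversed under both other scalings.

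Of 11 oxysterol and LXR genes, 8 were at 0 in all 6 libraries and 2 were tested. NR1H2, the widely expressed LXR receptor, rose from 25.8 ± 0.620 to 41.2 ± 1.16 TPM (SD, n = 3 each; limma adjusted p = 2.1e-06). HSD3B7, an enzyme of bile acid synthesis, was at 0 in the controls and reached 8.23, 7.14 and 6.49 TPM in the MT-treated libraries. NR1H3 and the efflux pumps ABCA1 and ABCG1, the classical LXR targets, were among the 8 genes at 0.

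Of 14 tested genes of intracellular sterol movement, 9 were higher and 4 lower, near the 61.6% and 34.1% of all tested genes, and 4 of the 14 were at 0 in every control. Under median centring 11 were higher and 3 lower, and with quantile normalization 8 and 5. Of the 9 above 0 in all libraries, 4 were higher and 4 lower, against 40.6% and 52.4% of such genes. The median difference was 0.087 over these 9 and 0.89 over the 14 tested. OSBPL10 and OSBPL2, both oxysterol-binding protein relatives, were at or near 0 in the controls, where the former had 0.87, 0 and 0 TPM and the latter was at 0 in each, with MT-treated values of 142, 135 and 128 TPM for the former and 27.0, 27.8 and 27.5 TPM for the latter. SCARB2, a receptor of the lysosomal membrane, fell from 17.1 ± 0.0462 to 2.62 ± 0.102 TPM (SD, n = 3 each; limma adjusted p = 5.92e-09). OSBPL1A, another relative, fell from 135 ± 1.98 to 80.4 ± 2.02 TPM (SD, n = 3 each; limma adjusted p = 2.89e-07). SCARB2 and OSBPL1A kept their direction under median centring and quantile normalization.

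**Figure D5:**
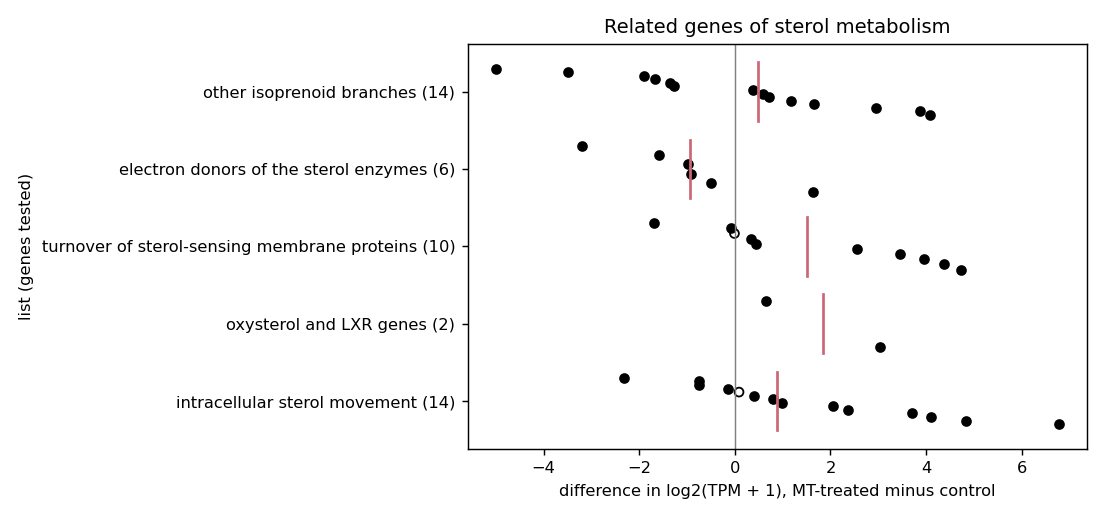
Difference between MT-treated and control blastocysts in log2(TPM + 1) on the horizontal axis for 46 tested genes related to sterol metabolism, in 5 lists on the vertical axis with the number tested in brackets. Filled points were called, open points were not, and red bars are list medians. The median of the list of electron donors, which includes PGRMC1 and PGRMC2, is -0.95. The median of the other isoprenoid branches is 0.49 as plotted, -0.84 after quantile normalization and -0.44 over its genes above 0 in all libraries.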

How the data were processed

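RNA of 6 libraries of pooled bovine blastocysts was sequenced, and the authors deposited TPM per gene, rounded to 2 decimals. Per the methods of the study, STAR 2.7.9a placed the trimmed reads on ARS-UCD1.3 and featureCounts counted them per gene. How TPM were derived from the counts is not given in the sources used here. The processing notes of the labels name ARS-UCD1.2, and the labels a TruSeq kit where the methods name Smart-seq2, so build and chemistry are uncertain and no coordinates are printed. Depth and counting error cannot be derived from TPM.

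Groups came from the labels. TPM were transformed to log2(TPM + 1), and limma 3.58.1 (R 4.3.3; lmFit, then eBayes with an intensity trend) was fitted across all genes that reached 1 TPM in 3 or more libraries. Adjusted p-values follow Benjamini and Hochberg over all of these genes, and measure only the spread between libraries. The members and gene lists were chosen with earlier results of these data known, from general knowledge, and a few pathway genes are not analysed here. Named were all 29 members and up to 2 called rises and 2 called falls of each related list. Alternatives tried were a minimum TPM of 5 or no minimum, a pseudocount of 0.1, genes above 0 in all 6 libraries, quantile normalization, median centring, eBayes without the trend, a replicate block and each library left out. The fit was tested only on simulated data with normal errors and few changed genes. In these libraries 95.7% of tested genes were called, so that test does not show how the fit performs here. Summaries and figures used Python 3.11.15, pandas 2.3.3 and matplotlib 3.10.9.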

Additional observations from a re-analysis of the deposited data

How the results depend on the processing

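Counts of called sterol genes, of related genes and of all tested genes stayed within 1.5 times the reported counts under all alternatives except the restriction to genes above 0 in all 6 libraries, which by construction drops genes at 0 in the controls and left 7 sterol genes higher and 17 lower of 24, 14 related genes higher and 16 lower of 32, and 2814 genes higher and 3626 lower of 6925 in the whole table, so that more genes were lower than higher. Quantile normalization called 5550 genes higher and 5311 lower over all genes, in place of 7367 and 4071. Leaving out 1 library at a time kept 11 sterol genes higher and 17 lower each time. Among the sterol and related genes named in the text, the direction reversed under median centring for MVK (0.055), PMVK (0.080), MVD (0.0064), INSIG2 (0.10), SOAT1 (0.33) and UBE2G2 (0.40). That centring removes a shift of -0.48 between the groups. Among the named markers, KRT8 (0.15) and FSHR (0.31) also reversed under it. Under quantile normalization the direction reversed for LSS (-1.51) and UBE2G2 (0.20), for which the cause was not tested. With the replicate number as a replicate block, 11 sterol genes were higher and 17 lower, and 7379 genes were higher and 4082 lower over all genes. UBE2G2 was then no longer called (limma adjusted p = 0.064). Whether the numbers pair the libraries is unknown, and 3 libraries per group cannot decide it. Same-numbered libraries had correlations of their deviations from the group means of 0.0671, -0.0283 and 0.139 over 6925 genes. Differently numbered libraries had correlations of -0.141 to 0.0752. The treatments ran concurrently within a run, but no source ties the numbers to runs. The 3 libraries of a group limit what the spread can show, and depth is unknown.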
